A study of Mus musculus with 6 samples.

Results

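The 10 genes described here encode 8 receptors of natural killer (NK) cells and innate-like T cells (Klrd1, Klrc1, Klrc2, Klrk1, Klre1, Klrg1, Klrb1c and Ncr1) and 2 signalling adaptors (Tyrobp and Hcst). They were chosen by name, and each of the 10 matched 1 of the 33300 features of the deposited expression table. RNA was measured by sequencing in cultures of 3 control mice, whose genotype is given as WT, and 3 SLE1.2.3 mice, all age-matched females (the sources used here give neither the age nor the background strain). SLE1.2.3 mice are a congenic model of lupus that combines the Sle1, Sle2 and Sle3 intervals from different chromosomes, so any difference belongs to the line as a whole and not to 1 allele. In both groups naive CD4 T cells were stimulated through CD3 and CD28 and cultured for 5 days under conditions that induce Th17 cells, the helper T cells that make interleukin-17. The medium held TGF-β1 at 1 ng/mL, IL-6 at 50 ng/mL, IL-1β at 10 ng/mL and IL-23 at 10 ng/mL, with blocking antibodies to IL-4 and interferon-γ at 10 µg/mL each. Libraries are named by group and mouse number.

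NK receptors read the state of neighbouring cells through ligands related to MHC class I molecules or through other lectins and cadherins. CD94, the product of Klrd1, reaches the cell surface as a pair with an NKG2 chain and binds the non-classical MHC molecule Qa-1. The pair with NKG2A (Klrc1) inhibits through tyrosine motifs in its own tail, whereas the pair with NKG2C (Klrc2) activates and depends on the adaptor DAP12 (Tyrobp). NKG2D (Klrk1) is not a partner of CD94. It binds stress-induced ligands and signals through the adaptor DAP10 (Hcst), which recruits phosphoinositide 3-kinase, and in one mouse isoform also through DAP12. These receptors define NK cells, and subsets of CD8, γδ and NKT cells carry some of them, while most conventional CD4 T cells carry few.

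The expression values are FPKM, reads per kilobase of gene length and per 1000000 reads assigned to the listed features. The number of assigned reads was recovered from the steps of the values and ranged from 29734191 to 56794712 in control libraries and from 61693332 to 83459151 in SLE1.2.3 libraries. Low genes were therefore more easily detected in the SLE1.2.3 group, with 1.61 times as many reads on average. A gene with no read could be present at up to 3 reads, between 0.0359 and 0.101 reads per 1000000 assigned reads depending on the library. Such limits cover counting error only. The defining transcripts of CD4 T cells were present in all 6 libraries, but Cd4 itself lay at 246, 264 and 253 FPKM in control mice 1, 2 and 3 and at 257, 144 and 71.6 FPKM in SLE1.2.3 mice 1, 2 and 3. The SLE1.2.3 libraries thus stood apart from one another. Of the genes described here, only Klrd1, Klrc1, Klrk1 and Hcst were also fitted with 1 library left out. Results for the remaining genes and the sums of marker genes are given with all 6 libraries only.

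Most of the receptor genes lay higher in SLE1.2.3 cells, while both adaptor genes had overlapping groups. All 3 SLE1.2.3 values lay above all 3 control values for 6 of the 10 genes, namely Klrd1, Klrc1, Klrc2, Klrk1, Klrg1 and Klrb1c, and the groups overlapped for Klre1, Ncr1, Tyrobp and Hcst. For comparison, 15.0% of the 30034 features with any read showed the same separation in that direction. The main test required an average level of 1 FPKM or more and used limma on log2(FPKM + 1), and 4 of the 10 genes qualified: Klrd1, Klrc1, Klrk1 and Hcst. Klrk1 qualified through its SLE1.2.3 values alone, which fixed its direction. Klrd1, Klrc1 and Klrk1 were called higher in SLE1.2.3 cells at an adjusted p under 0.05 and Hcst was not called, while 9.65% of the 11378 tested features were called higher and 5.58% lower. The other 6 genes were too low for this test. For these, limma's voom method was applied to the recovered reads of all features with at least 10 reads in 3 or more libraries, an alternative chosen after the data were seen, and it called 6.92% of 16388 features higher.

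**Figure D1:**
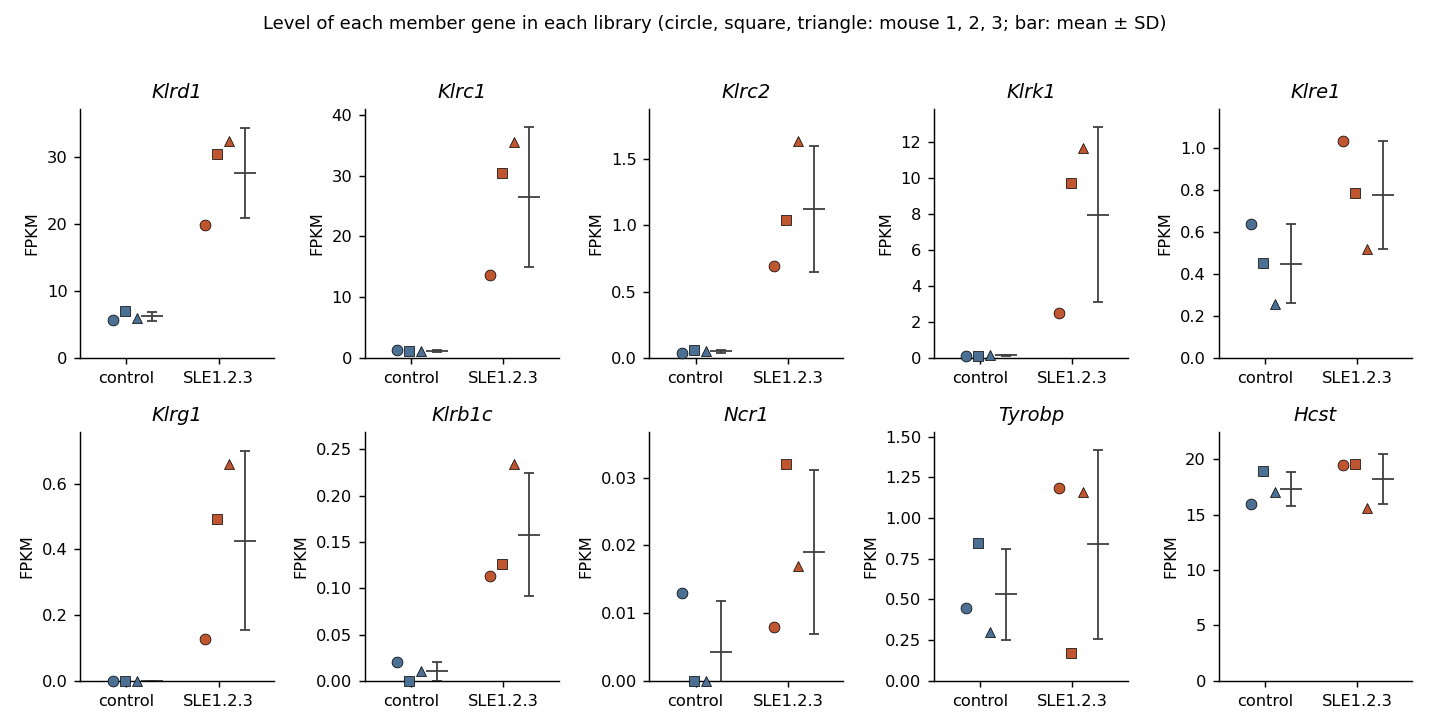
Level in FPKM (vertical axes, each starting at 0 with its own range) of the 10 genes in the 3 control (blue) and 3 SLE1.2.3 (red) libraries; circles, squares and triangles are mice 1, 2 and 3 and bars are the mean ± SD (n = 3). The groups do not overlap for Klrd1, Klrc1, Klrc2, Klrk1, Klrg1 and Klrb1c, whereas Hcst lay between 15.6 and 19.6 FPKM in all 6 libraries.

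Klrd1, which encodes the shared CD94 chain, was the receptor gene with the highest level in control cells. Its level was 5.68, 6.98 and 5.99 FPKM in control mice 1, 2 and 3 and 19.9, 30.5 and 32.3 FPKM in SLE1.2.3 mice 1, 2 and 3. The lowest SLE1.2.3 value was well above the highest control value. The mean rose from 6.21 ± 0.682 to 27.5 ± 6.71 FPKM (SD, 3 mice a group). This was a log2 change of 1.96 ± 0.19 (SE; limma adjusted p = 0.0050). Between 228 and 508 reads per control library and between 2124 and 3108 reads per SLE1.2.3 library stood behind these values.

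Klrc1, which encodes the inhibitory chain NKG2A, was low but present in every control library. Control mice 1, 2 and 3 had 1.41, 1.11 and 1.2 FPKM, and SLE1.2.3 mice 1, 2 and 3 had 13.6, 30.4 and 35.4 FPKM. SLE1.2.3 mouse 1 lay below the other two and still far above all controls. The mean rose from 1.24 ± 0.155 to 26.5 ± 11.4 FPKM, with a log2 change of 3.51 ± 0.33 (SE; limma adjusted p = 0.0050). As a ratio of means this was 21.3-fold. The calls for Klrd1 and Klrc1 were kept with each of the 6 libraries left out in turn, with adjusted p between 6.93e-05 and 0.0351 for Klrd1 and between 1.99e-05 and 0.036 for Klrc1.

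Klrc2, which encodes the activating chain NKG2C, had about the same ratio between groups at a far lower level. It was measured at 0.041, 0.064 and 0.052 FPKM in the controls and at 0.695, 1.04 and 1.63 FPKM in SLE1.2.3 mice 1, 2 and 3. The groups did not overlap, and the ratio of means was 21.4-fold. On the recovered reads, between 9 and 21 per control library and between 337 and 712 per SLE1.2.3 library, voom called it higher with a log2 change of 4.27 ± 0.65 (SE; adjusted p = 0.015). Its control reads alone did not meet the filter of that test, whereas its SLE1.2.3 reads did, so the filter favoured this direction. Of the 50-base stretches in the annotated Klrc2 transcripts 16.3% also occur in another gene, mostly Klrc1, and for Klrc1 the share is 38.6%, shared with Klrc2 and Klrc3. Reads of these paralogs may therefore have been split or dropped, and the level of each is uncertain. Klrc1 exceeded Klrc2 by a factor of 34.4, 17.3 and 23.2 in the controls and of 19.6, 29.3 and 21.7 in SLE1.2.3 mice 1, 2 and 3, ranges that overlap.

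Klrk1, which encodes NKG2D, showed the largest ratio of means among the genes measured above 0 in every control library. It was measured at 0.141, 0.115 and 0.192 FPKM in control mice 1, 2 and 3, and at 2.49, 9.75 and 11.7 FPKM in SLE1.2.3 mice 1, 2 and 3. Control libraries held between 41 and 51 Klrk1 reads and SLE1.2.3 libraries between 1494 and 6310. The ratio of means was 53.4-fold, and on the log2(FPKM + 1) scale, which understates changes of low genes, the change was 2.77 ± 0.47 (SE; limma adjusted p = 0.018). On the recovered reads the log2 change was 5.49 ± 1.34 (SE; voom adjusted p = 0.045). The limma call ended without control mouse 1 (adjusted p = 0.0753), control mouse 2 (0.0799), control mouse 3 (0.0738) or SLE1.2.3 mouse 2 (0.0817), and it was kept without SLE1.2.3 mouse 1 (4.11e-05) or mouse 3 (0.03).

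Hcst, which encodes the NKG2D adaptor DAP10, was at a similar level in both groups. It was measured at 15.9, 18.9 and 17.0 FPKM in the controls and at 19.5, 19.6 and 15.6 FPKM in SLE1.2.3 mice 1, 2 and 3. The groups overlapped, with the lowest value of all in SLE1.2.3 mouse 3. The log2 change was 0.07 ± 0.11 (SE; limma adjusted p = 0.70), with a 95% confidence interval from -0.20 to 0.33, so a change of more than 0.33 in either direction lies outside the interval. Klrk1 amounted to 0.00885, 0.00608 and 0.0113 of the Hcst level in the controls and to 0.128, 0.499 and 0.75 of it in SLE1.2.3 mice 1, 2 and 3. The ratio of receptor to adaptor transcript thus differed between groups through Klrk1, with the Hcst level in a narrow range.

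**Figure D2:**
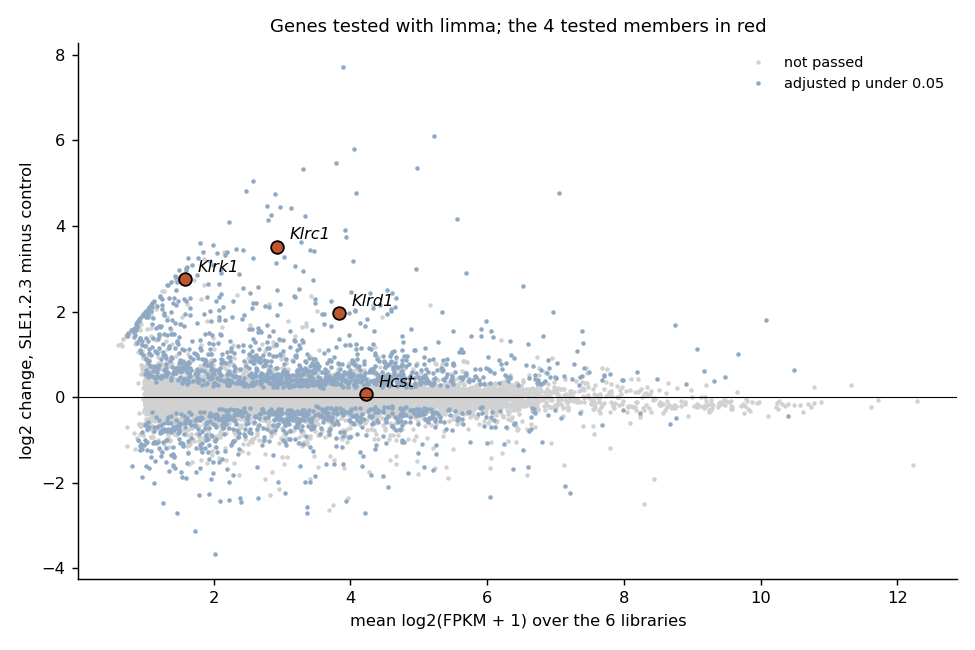
Log2 change between groups (vertical axis, SLE1.2.3 minus control, on the log2(FPKM + 1) scale) against mean log2(FPKM + 1) over the 6 libraries (horizontal axis) for the 11378 features tested with limma; blue points passed an adjusted p of 0.05, grey points did not, and red circles are the 4 tested genes described here. Klrc1, Klrk1 and Klrd1 sit at 3.51, 2.77 and 1.96 and Hcst at 0.07.

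The stretches of 250 bases before the annotated transcription start are shown for Klrk1 and Klrc1, receptor genes of chromosome 6 that rose, and for Ncr1 and Hcst of chromosome 7, a receptor gene that was close to absent and an adaptor gene that did not pass the test. They lie at chr6:129623865-129624114 (Klrk1), chr6:129678974-129679223 (Klrc1) and chr7:30419855-30420104 (Hcst) on the minus strand and at chr7:4337465-4337714 (Ncr1, the first of its annotated starts) on the plus strand, from RefSeq on GRCm38.p6, and are written 5′ to 3′ so that each ends at the base before the start. Capitals mark matches, on either strand, to the core motifs TGTGGT (RUNX factors), AGGAAGT (ETS factors) and AGGTCA (ROR factors).
Klrk1: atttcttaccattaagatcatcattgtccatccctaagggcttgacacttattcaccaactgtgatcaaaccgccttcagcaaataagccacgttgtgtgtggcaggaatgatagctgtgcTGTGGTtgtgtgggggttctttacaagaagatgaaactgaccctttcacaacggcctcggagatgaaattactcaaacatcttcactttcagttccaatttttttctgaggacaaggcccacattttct
Klrc1: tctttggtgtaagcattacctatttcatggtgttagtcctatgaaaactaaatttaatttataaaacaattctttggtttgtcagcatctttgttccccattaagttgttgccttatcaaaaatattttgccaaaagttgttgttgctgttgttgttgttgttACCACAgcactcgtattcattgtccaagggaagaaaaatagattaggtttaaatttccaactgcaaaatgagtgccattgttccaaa
Ncr1: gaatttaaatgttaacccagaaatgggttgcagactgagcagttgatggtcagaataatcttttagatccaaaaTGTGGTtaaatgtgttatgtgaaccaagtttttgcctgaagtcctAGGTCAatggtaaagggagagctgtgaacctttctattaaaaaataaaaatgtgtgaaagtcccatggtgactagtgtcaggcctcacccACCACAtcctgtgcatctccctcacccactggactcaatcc
Hcst: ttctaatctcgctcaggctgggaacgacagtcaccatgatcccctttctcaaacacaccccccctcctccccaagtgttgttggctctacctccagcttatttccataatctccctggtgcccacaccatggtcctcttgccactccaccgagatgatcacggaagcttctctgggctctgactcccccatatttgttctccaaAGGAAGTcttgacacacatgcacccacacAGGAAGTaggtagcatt

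The RUNX core motif TGTGGT or its reverse complement ACCACA was found in the stretches of Klrk1 and Klrc1, with 1 match each, and of Ncr1, with 2 matches. It was not in that of Hcst, which held AGGAAGT at 2 places. Promoter stretches were given for 7 of the 10 genes. The RUNX motif was in 6 of the 7 at the first annotated start, including Klre1 and Ncr1, whose groups overlapped, and it was not at the other annotated start of Klre1. Of 27025 promoter stretches of the same length 14.2% held it, 7.8% held the ETS motif and 13.8% the ROR motif. The motifs AGGTGT (T-box factors), TGANTCA (AP-1) and TTCNNNGAA (STAT) were searched as well on both strands and matched none of the 7 stretches, and they are found in 12%, 6.87% and 7.18% of the promoter stretches. These matches describe letters and were not tested as binding sites. Runx3, a factor that binds the RUNX motif, averaged 39.3 ± 2.37 FPKM in the controls and 42.2 ± 0.765 FPKM in the SLE1.2.3 group (limma adjusted p = 0.30).

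Klrg1 encodes an inhibitory receptor for cadherins that marks differentiated NK and effector T cells. It was listed at 0 in all 3 controls and at 0.127, 0.493 and 0.659 FPKM in SLE1.2.3 mice 1, 2 and 3, from 15 to 70 reads per library. Against the limit of 3 reads over the 3 control libraries together, the pooled SLE1.2.3 level of 0.411 FPKM was at least 26.5-fold higher. The exact binomial 95% interval for counting error, of the kind given for Klrb1c and Ncr1, starts lower, at 21.3-fold. Voom called Klrg1 higher on the reads (adjusted p = 0.024). Its reads in SLE1.2.3 mice alone brought it into that test, which fixed its direction.

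Klrb1c encodes NK1.1, the classical NK cell antigen of some mouse strains. The gene was found at 0.02, 0 and 0.011 FPKM in control mice 1, 2 and 3, from 4 reads in all, and at 0.113, 0.126 and 0.234 FPKM in SLE1.2.3 mice 1, 2 and 3, from 23 to 52 reads per library. The groups did not overlap, and the ratio of pooled reads per depth was 16-fold, with a 95% exact binomial interval for counting error from 6.06 to 59.8. Voom gave an adjusted p of 0.028, and here too the SLE1.2.3 reads alone met the filter. In the annotation 413 bases of the Klrb1c exons overlap those of Gm44511 on the same strand. Of the 50-base stretches of Klrb1c 17% also occur in another gene, mostly Gm44511 but also Klrb1a and Klrb1b. Klrb1c reads may therefore include or lack reads of these genes. Klrb1b averaged 0.119 FPKM in the controls and 0.78 FPKM in the SLE1.2.3 group, without overlap (voom adjusted p = 0.18).

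Ncr1 encodes NKp46, which among lymphocytes is the most selective marker of NK cells and related innate lymphocytes. It was close to absent at this depth, at 0.013, 0 and 0 FPKM in the controls and at 0.008, 0.032 and 0.017 FPKM in SLE1.2.3 mice 1, 2 and 3. These values stand for 1 read in the controls and 6 in the SLE1.2.3 group. The ratio per depth was 3.73 with a counting interval from 0.452 to 171 (95%, exact binomial), and a difference was not detectable at this depth (exact two-sided permutation p = 0.2, where the smallest possible p is 0.1).

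Klre1 encodes a receptor chain without a known ligand that forms pairs with the KLRI1 and KLRI2 chains. It was measured at 0.637, 0.454 and 0.26 FPKM in the controls and at 1.03, 0.784 and 0.518 FPKM in SLE1.2.3 mice 1, 2 and 3, so the groups overlapped (voom adjusted p = 0.24). Its partner gene Klri2 did rise, from 0.0507 ± 0.0108 to 2.06 ± 0.536 FPKM (limma adjusted p = 0.0053), whereas Klri1 had at most 0.014 FPKM in any library. Klri2 passed the filter on its SLE1.2.3 values alone.

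Tyrobp encodes DAP12, the adaptor with an immunoreceptor tyrosine-based activation motif (ITAM) on which NKG2C depends. Tyrobp lay at 0.447, 0.845 and 0.303 FPKM in control mice 1, 2 and 3 and at 1.19, 0.17 and 1.16 FPKM in SLE1.2.3 mice 1, 2 and 3. The lowest value of all 6 was that of SLE1.2.3 mouse 2, a library in which Klrc1 and Klrk1 were high. Only 7 reads were behind that value, against up to 66 in the other SLE1.2.3 libraries. The voom log2 change was 0.32 ± 0.84 (SE; adjusted p = 0.82), and the 95% interval from -1.68 to 2.32 leaves room for changes in both directions. Tyrobp is also a myeloid gene, and the 12 myeloid markers summed to between 9.25 and 10.9 FPKM in the controls and to 13.8, 5.92 and 4.3 FPKM in SLE1.2.3 mice 1, 2 and 3, and their part in the Tyrobp values was not tested. Fcer1g, the other ITAM adaptor of NK cells, was at 0.371 to 1.00 FPKM in the 6 libraries. The Hcst level exceeded that of Tyrobp in every library, by a factor of 22.4 to 56.3 in the controls and of 13.5 to 115 in SLE1.2.3 cells.

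The order of levels per gene length changed between groups. In control cells the order was Hcst (17.3 FPKM on average), Klrd1 (6.21), Klrc1 (1.24), Tyrobp (0.532), Klre1 (0.45), Klrk1 (0.149), Klrc2 (0.0523), Klrb1c (0.0103), Ncr1 (0.00433) and Klrg1 (0). Ranges of neighbours in this order overlapped for Tyrobp with Klre1, for Klrb1c with Ncr1 and for Ncr1 with Klrg1. In SLE1.2.3 cells Klrd1 (27.5 FPKM) and Klrc1 (26.5) came before Hcst (18.2), and the ranges of these 3 overlapped in part. Klrk1 followed at 7.98 FPKM, then Klrc2 (1.12), Tyrobp (0.838), Klre1 (0.778), Klrg1 (0.426), Klrb1c (0.158) and Ncr1 (0.019), with overlapping ranges from Klrc2 through Klrb1c. The deposited length of Klrk1 is 7183 bases and that of Klrc2 5812, against 1281 for Klrd1, because the lengths join the exons of all annotated transcripts. A gene whose cells use the shorter transcripts is therefore understated in FPKM. Klrc1 amounted to between 0.159 and 0.249 of the Klrd1 level in the controls and to 0.684, 0.999 and 1.1 of it in SLE1.2.3 mice 1, 2 and 3.

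Klrd1 (chromosome 6, 129591782 to 129598775, mm10), Klrk1 (129610323 to 129623864), Klrc2 (129647496 to 129660689) and Klrc1 (129666015 to 129678973) lie close together in the NK gene complex, a cluster of lectin receptor genes. From Klre1 to Klri2 the cluster holds 8 protein-coding genes in 163 kb, and in 6 of them all SLE1.2.3 values lay above all control values. Those 6 were Klrd1, Klrk1, Klrc3, Klrc2, Klrc1 and Klri2, and the exceptions were Klre1 and Klri1. The limits of this stretch were set with earlier results known, and the groups overlapped for the next genes after it, Klrh1 and Klra17. Klrc3, a further NKG2 gene that shares 36.3% of its 50-base stretches with Klrc1 and Klrc2, was at no more than 0.137 FPKM in the controls and at 0.44, 1.26 and 1.79 FPKM in SLE1.2.3 mice 1, 2 and 3. The nearest tested gene before the stretch, Gabarapl1, an autophagy gene, averaged 39.6 ± 4.79 FPKM in the controls and 39.7 ± 5.92 FPKM in the SLE1.2.3 group (limma adjusted p = 0.99). Over the whole complex from Klrb1 to Klra1, 17 of 39 protein-coding genes had all SLE1.2.3 values above the controls and 1 had them below. Over all features with any read the share above was 15.0%, and some of the 17 rest on values near 0, such as Klra4 with at most 0.032 FPKM. Most Klra genes, which encode the Ly49 receptors, were near 0 in every library, with Klra3 highest at 1.89 FPKM in SLE1.2.3 mouse 3. The groups overlapped for Klra3 (voom adjusted p = 0.17). Klra5 averaged 0.009 FPKM in the controls and 0.364 FPKM in SLE1.2.3 cells, without overlap, and voom called it higher (adjusted p = 0.0094). It met the voom filter on its SLE1.2.3 reads alone, which fixed its direction.

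**Figure D3:**
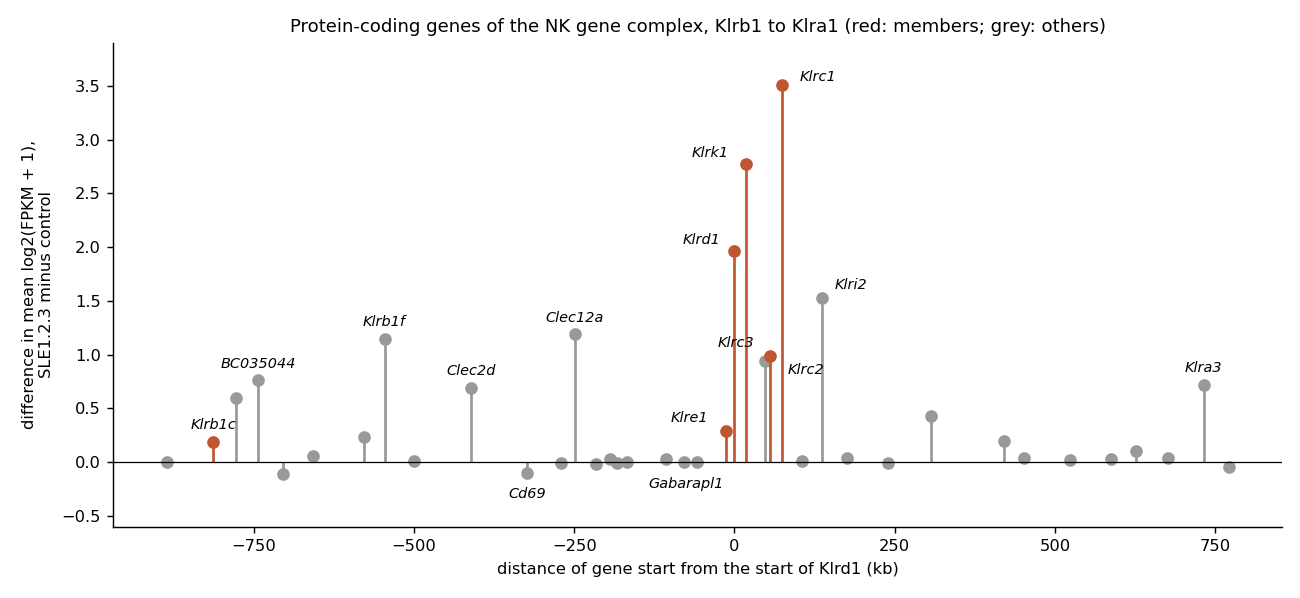
Difference in mean log2(FPKM + 1) between groups (vertical axis, SLE1.2.3 minus control, n = 3 each, with no filter) for the 39 protein-coding genes from Klrb1 to Klra1, by distance of the gene start from that of Klrd1 in kb (horizontal axis); red marks the genes described here and grey the others. The largest differences, those of Klrc1, Klrk1 and Klrd1, stand close together and Gabarapl1, on one side of them, is at 0.00.

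The genes of chromosome 7 did not show such a block. Tyrobp (30413760 to 30417585) and Hcst (30417712 to 30419854) are 127 bases apart, on opposite strands, and Ncr1 (4337724 to 4345164) lies elsewhere on that chromosome, which also carries the Sle3 interval, with limits that no source used here gives. Nfkbid, an inhibitor of NF-κB that is the nearest tested gene after Hcst, averaged 12.2 ± 2.15 FPKM in the controls and 10.1 ± 0.714 FPKM in the SLE1.2.3 group (limma adjusted p = 0.24). Sdhaf1, the nearest tested gene before Tyrobp, was at 3.20 ± 0.241 and 3.38 ± 0.568 FPKM (limma adjusted p = 0.77). Klrg1 is on chromosome 6 (122270596 to 122282882) outside the NK gene complex.

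The receptor genes varied among the SLE1.2.3 mice. Mouse 1 had the lowest level of the 3 for Klrd1, Klrc1, Klrc2, Klrk1, Klrg1 and Klrb1c. Mouse 3 exceeded mouse 1 by a factor of 1.63 for Klrd1, 2.61 for Klrc1, 2.35 for Klrc2, 4.69 for Klrk1 and 5.19 for Klrg1. For Hcst the same ratio was 0.801 and for Klre1 0.502. Mice 2 and 3 were closer to each other for some genes, with a ratio of mouse 3 to mouse 2 of 1.06 for Klrd1, 1.16 for Klrc1 and 1.2 for Klrk1, against 1.57 for Klrc2 and 1.86 for Klrb1c. The granzyme gene Gzma had a ratio of 1.02 between these mice, Klri2 0.892, the γδ receptor gene Trdc 2.39 and the CD8 gene Cd8a 2.64. In SLE1.2.3 mouse 1, with Cd4 at 257 FPKM, Klrd1 was at 3.20, Klrc1 at 10.9 and Klrk1 at 16.7 times the control mean. The same library had a summed level of 70.4 FPKM for γδ T cell genes and of 29.2 FPKM for other NK cell genes. The controls had at most 8.41 and 6.62 FPKM. Most of the 29.2 FPKM came from Gzma (20.046 FPKM) and Prf1 (5.996 FPKM), which are also cytotoxic T cell genes.

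**Figure D4:**
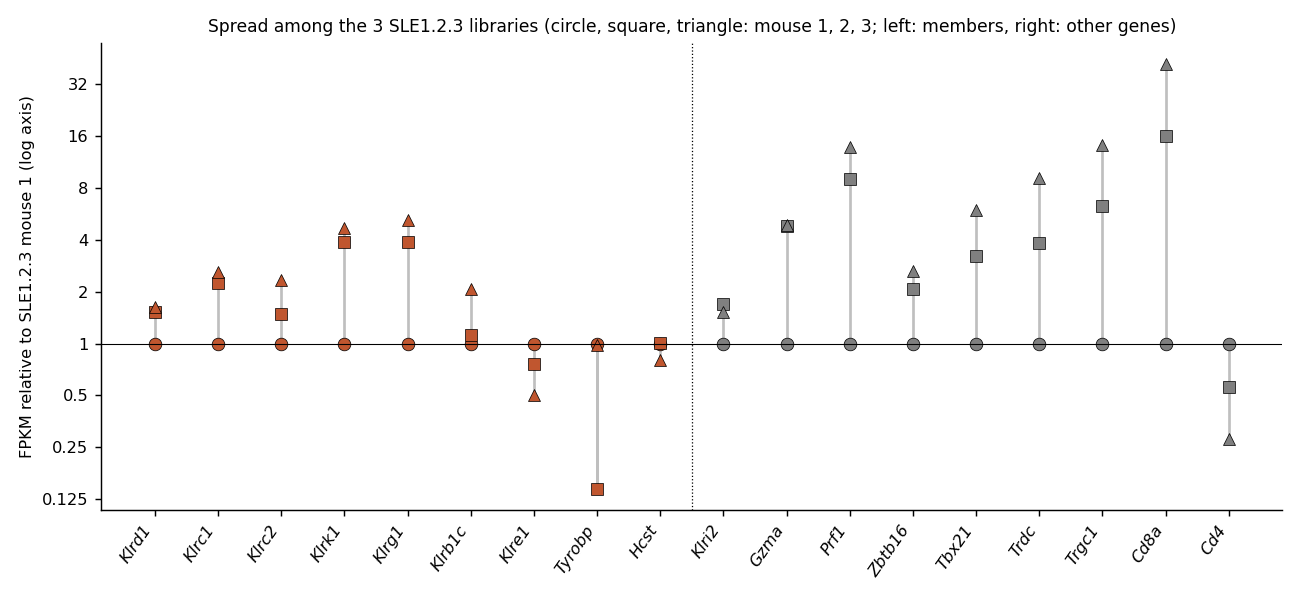
FPKM in each SLE1.2.3 library relative to SLE1.2.3 mouse 1 (vertical log axis) for 9 of the genes described here (red, left of the dotted line; Ncr1 is left out because of its few reads) and 9 other genes (grey); circles, squares and triangles are mice 1, 2 and 3. Mice 2 and 3 lie close together for Klrd1, Klrc1, Klrk1 and Gzma and further apart for Trdc, Trgc1 and Cd8a, and Cd4 in mouse 3 is at a ratio of 0.278.

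Markers of several lymphocyte types moved with the receptor genes. In bulk RNA a larger share of cells of a type and more RNA per cell cannot be told apart. Of 11 γδ T cell genes found, all tested, 9 were called higher with limma and 0 lower, and voom called 0 of the 11, with 9 at an unadjusted p under 0.05. Each of the 9 had a control mean under 1 FPKM and passed the filter on its SLE1.2.3 values, which fixed the direction. Trdv1 went the other way without overlap, from 3.57 ± 0.146 to 2.25 ± 0.536 FPKM (limma adjusted p = 0.052). The summed level of the 11 genes was 6.96 to 8.41 FPKM in the controls and 70.4, 323 and 720 FPKM in SLE1.2.3 mice 1, 2 and 3. The CD8 genes Cd8a and Cd8b1 summed to 4.65 to 5.6 FPKM in the controls and to 7.69, 49.9 and 110 FPKM in the same SLE1.2.3 mice, and neither passed (limma adjusted p = 0.081 and 0.093). Cd8a met the filter on its SLE1.2.3 values alone. The list of 11 NK cell genes outside the 10 described here summed to 3.6 to 6.62 FPKM in the controls and to 29.2, 155 and 186 FPKM in SLE1.2.3 mice 1, 2 and 3, and its 3 tested genes, Gzma, Prf1 and Klri2, were called higher with limma. Prf1 and Klri2 passed the filter on their SLE1.2.3 values alone. Voom did not keep the calls for Gzma (adjusted p = 0.052) and Prf1 (0.11), which are also cytotoxic T cell genes, and it called Klri2 and Styk1 higher among 8 tested genes of the list. In 6 of the 11 genes, Gzma, Prf1, Klri2, Styk1, Eomes and Klra4, all SLE1.2.3 values lay above all control values, and the groups overlapped for Itga2, Fcgr3, Klra8, Klra7 and Cma1. Styk1 averaged 0.0113 FPKM in the controls and 0.189 FPKM in SLE1.2.3 cells (voom adjusted p = 0.029). Klri2 and Styk1 met the voom filter through their SLE1.2.3 reads and not on their control reads alone, so the filter favoured this direction. Eomes, the NK cell transcription factor gene, averaged 0.0837 and 0.232 FPKM (voom adjusted p = 0.13). Klra8 and Klra4 were listed at 0 in all controls and reached 0.023 and 0.032 FPKM in SLE1.2.3 cells. The 10 αβ T cell genes summed to 2390 to 2490 FPKM in the controls and to 2610, 2290 and 2030 FPKM in SLE1.2.3 mice 1, 2 and 3. The sums of SLE1.2.3 mice 2 and 3 thus lay below those of all controls. Limma and voom called 0 of these αβ T cell genes in either direction, and at an unadjusted p under 0.05 the count was 1 with limma and 1 with voom. The CD4 T cell list of 3 genes summed to 316 to 339 FPKM in the controls and to 343, 202 and 119 FPKM in SLE1.2.3 mice 1, 2 and 3, with 0 called by limma or voom and 0 at an unadjusted p under 0.05. Igkc, an antibody light chain gene of B cells, averaged 1.1 ± 0.488 FPKM in the controls and 98.2 ± 48.9 FPKM in the SLE1.2.3 group (limma adjusted p = 0.0016). The part of other cell types in the receptor gene levels was not tested.

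Ligands of the receptors were measured in the same cells. H2-T23, which encodes Qa-1, the ligand of CD94 with NKG2A or NKG2C, was at 74.8, 83.7 and 76.1 FPKM in the controls and 119, 138 and 135 FPKM in SLE1.2.3 mice 1, 2 and 3. The groups did not overlap, and it rose by 0.73 ± 0.09 on the log2 scale (SE; limma adjusted p = 0.0078). Clec2d, a lectin ligand of NKR-P1 receptors, rose from 48.8 ± 4.95 to 79.1 ± 4 FPKM (limma adjusted p = 0.0097). The NKG2D ligand gene Ulbp1 was at 2.58 ± 0.138 and 3.09 ± 0.986 FPKM (limma adjusted p = 0.54), and the NKG2D ligand genes Raet1d and H60b stayed under 1 FPKM in every library. The further NKG2D ligand genes Raet1a, Raet1b, Raet1c and H60c were not found by name among the features, so their levels are unknown. Cdh1, which encodes the KLRG1 ligand E-cadherin, was at most 0.116 FPKM. Of the 4 tested ligand genes 2 rose and 0 fell, with a median log2 change of 0.43 against 0.01 over all tested features.

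Most signal transduction genes of these receptors did not pass the test. Of 8 tested genes of the list of ITAM adaptors and kinases, limma called 0 in either direction, voom called 0 of 11, and at an unadjusted p under 0.05 the count was 4 with limma and 4 with voom. The median log2 change was 0.23. Zap70, the kinase that binds phosphorylated ITAMs in T and NK cells, was at 103 ± 1.25 and 104 ± 5.42 FPKM (limma adjusted p = 0.87), and the related kinase gene Syk was at most 0.515 FPKM in any library. Cd247, which encodes CD3ζ, an ITAM chain used by NKp46 as well as the T cell receptor, was at 38.5 ± 2.53 and 52.6 ± 7.15 FPKM, with groups that did not overlap and a limma adjusted p of 0.052. Lat2, an adaptor that resembles LAT, was at 0.333, 0.591 and 0.667 FPKM in the controls and 1.39, 5.88 and 9.35 FPKM in SLE1.2.3 mice 1, 2 and 3 (limma adjusted p = 0.057). Lat2 met the filter on its SLE1.2.3 values alone, which fixed its direction. Of 6 tested genes of the CD94 and NKG2 arm, Klrd1, Klrc1 and H2-T23 rose and 3 did not pass. Among the 3, the phosphatase genes Ptpn6 and Ptpn11, which act on NKG2A signalling, had log2 changes of -0.30 and 0.00 and did not pass (limma adjusted p = 0.17 and 0.97). Of 7 tested genes of the NKG2D arm, Klrk1 rose and 6 did not pass, among them the phosphoinositide 3-kinase genes Pik3cd and Pik3r1 with log2 changes of -0.10 and -0.04.

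Other receptors and factors shared with NK cells moved in both directions. Of 5 tested lectin genes of the NK complex beyond the 10, Klrb1f, Klri2 and Clec2d rose and Clec2i and Cd69 did not pass. Klrb1f, an NKR-P1 receptor gene, rose from 2.19 ± 0.224 to 6.17 ± 1.5 FPKM (limma adjusted p = 0.011). Among 8 tested NK receptor genes outside the complex 3 rose and 2 fell: Tigit, Il18rap and Cd96 had log2 changes of 2.24, 2.33 and 1.94, and Slamf7 and Slamf6 changes of -1.49 and -1.34. The voom fit did not keep the calls for Cd96 (adjusted p = 0.072) and Tbx21 (adjusted p = 0.071), a transcription factor gene of the next list. Of 7 tested genes for NK and innate-like transcription factors, 4 rose (Zbtb16, Prdm1, Id2 and Tbx21, with log2 changes of 2.30, 2.99, 2.00 and 2.86) and Ets1, a factor needed for NK cell development, fell by 0.48. Tbx21, Zbtb16 and Prdm1 passed the filter on their SLE1.2.3 values alone, and Slamf7, at 2.73 FPKM in the controls and 0.321 FPKM in SLE1.2.3 cells, on its control values alone.

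The mean of log2(FPKM + 1) over the 10 genes was 0.963, 1.01 and 0.918 in control mice 1, 2 and 3 and 1.77, 2.06 and 2.21 in SLE1.2.3 mice 1, 2 and 3. The 5 tested genes with the most similar pattern over the 6 libraries were the myosin gene Myo1f, Cyth4, Idnk, Lrrc49 and Slc15a3, a lysosomal peptide transporter gene. Their Pearson correlation with that mean lay between 0.9986 and 0.9996 (n = 6 libraries). These points share the gap between groups, and 880 of 11374 other tested features had a correlation above 0.95, so that the ranking is a description. For Myo1f the levels were 35.9, 45.8 and 51.5 FPKM in SLE1.2.3 mice 1, 2 and 3 against a control mean of 20.1 FPKM.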

How the data were processed

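Polyadenylated RNA of 6 cultures was sequenced after SMARTER library preparation (per the labels' protocols). Per the submitters' processing notes, which give neither role nor order, the tools were STAR 2.7.3a, featureCounts 2.0.0, FastQC 0.11.9, DESeq2 1.24.0 (named by the authors) and cutadapt 2.10, with build mm10. No source used here gives the strand setting, so overlapping antisense reads may be mixed. The authors deposited FPKM values for 33300 features. All 10 genes have the same coordinates in GENCODE M21.

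Depth was recovered from the FPKM steps: of the values under 30 reads, 100% were whole within 0.15 read in every library. Values were fitted as log2(FPKM + 1) with limma 3.58.1 in R 4.3.3, with genotype as the only term, a mean-variance trend and Benjamini-Hochberg adjustment over all features with a mean of at least 1 FPKM. Each adjusted p comes from this fit unless voom is named. Voom (limma) used the recovered reads with trimmed-mean-of-M-values scaling factors. The fit was tested on simulated data. Intervals and floors cover counting error only. Libraries are labelled as separate mice, and p-values cover the spread among them.

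The 10 genes, the gene lists and the tests were chosen with earlier results of these data known. The text names the 10 genes, up to 4 called genes of each list or up to 2 tested genes where none was called, cell type check genes, the nearest tested genes on the chromosome and the 5 features most alike. Other genes of the lists and the NK gene complex are named for their role and were chosen after their values were seen. Alternatives changed the pseudocount, the filter, the scaling, the variance model, the count model and the samples.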

Additional observations from a re-analysis of the deposited data

How the results depend on the processing

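Klrd1 and Klrc1 were called higher in all 17 fits, and Hcst in none. With 3 of the 10 genes called in the main analysis, voom on recovered reads with low features kept, which tests more features, called 6. Leaving out 1 library gave 2 to 3 called genes of the 10. Klrk1 was not called without a filter (adjusted p = 0.0559) or without control mouse 1, 2 or 3 or SLE1.2.3 mouse 2 (0.0738 to 0.0817), and it was not tested at a mean of at least 5 FPKM. Its log2 change was 4.76 with a pseudocount of 0.1 and 5.50 with voom, against 2.77. Over all features 1733 were called. The count was 798 without a filter, 1129 at a mean of at least 5 FPKM and 5665 with array weights, and the cause was not tested. It ranged from 240 to 3701 with 1 library left out: 327, 261 and 288 without control mouse 1, 2 and 3, and 3701, 240 and 1290 without SLE1.2.3 mouse 1, 2 and 3. Of the called features 63.4% were higher, and 52% after quantile normalization.

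With mouse number as a replicate block 940 features were called, and the 3 genes kept their calls. The labels state no pairing by number, and none was seen. Deviations of same-numbered libraries correlated at -0.004, 0.1 and 0.091, and not every library correlated best with its own number. With so few libraries these values cannot show that the samples were unpaired.

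Depth limits Klrg1, Klrb1c and Ncr1, which rest on 0, 4 and 1 reads in the controls, and Tyrobp, with 6 to 66 reads per library.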

Other observations

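A feature beside Klrg1 was higher in SLE1.2.3 cells. Gm6637 (chromosome 6, 122295664 to 122296045, mm10), the nearest tested feature after Klrg1, begins 12782 bases past its end. It was listed at 0.052, 0.138 and 0 FPKM in control mice 1, 2 and 3 and at 2.7, 11.7 and 12.8 FPKM in SLE1.2.3 mice 1, 2 and 3. The groups did not overlap, and the log2 change was 3.03 ± 0.50 (SE; limma adjusted p = 0.017). Gm6637 passed the filter on its SLE1.2.3 values alone, and the annotation gives it a length of 382 bases. Gm44066, the nearest tested feature after Klrb1c, rose from 2.43 ± 0.551 to 6.04 ± 0.697 FPKM (SD, n = 3 each; limma adjusted p = 0.0095).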
